A study of Mus musculus with 21 samples.

Results

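The 2 genes described here are Kit, which encodes a receptor tyrosine kinase, and Kitl, which encodes its ligand, stem cell factor. They are 2 of the 12791 genes with values in the deposited tables. The pair was chosen by symbol, with results of these libraries already known, so its differences between ages are given as descriptions without a test. The comparisons that bear on age are those of aged uteri with uteri of 8 and of 5 weeks, and both use the same aged libraries.

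RNA of the whole uterus was sequenced in C57BL/6J mice, an inbred strain, all of them wild type. All animals, the young controls included, received an injection of pregnant mare serum gonadotropin (PMSG), a horse hormone that stimulates growth of ovarian follicles, at 5 or 7.5 units, 48 hours before the uterus was removed. Values were available for 7 uteri of 5-week-old mice, 7 of 8-week-old mice and 6 of aged mice. Replicates 1 and 2 of each age form an earlier set of 6 libraries, in which the aged mice were 60 to 75 weeks old, and the other 14 libraries form a later set with aged mice of 79 weeks. Instrument, read length, RNA kit and PMSG dose varied in the study and are not tied to single animals in the sources used here, so that these and, for the aged group, the exact age cannot be told apart between the sets. Nothing in the labels states that each library came from a separate mouse, so the spread given is that between libraries. In 15 of the 20 tables the column header names another sample than the one the table belongs to, and the headers were followed here. A whole uterus mixes epithelium, stroma, muscle, vessels and immune cells, and in such bulk RNA fewer cells of a type and less RNA per cell cannot be told apart.

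Kit sits in the membrane of the responding cell, forms pairs when stem cell factor binds, and signals through adaptor proteins to the Ras, PI3 kinase, phospholipase C and Stat pathways. Mast cells, melanocytes, germ cells, early blood progenitors and interstitial cells of Cajal, the pacemaker cells of the gut wall, are known to depend on it. Stem cell factor is made as a membrane protein, and proteases can release it as a soluble factor, which reaches cells that do not touch the one that made it.

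Both genes have a short coding segment that some transcripts carry and others lack, and it is shown here because the deposited values are sums per gene and do not part these forms. In Kit the segment lies in exon 9 (GRCm38 chromosome 5, 75639147 to 75639158, 12 bases), is present in transcript Kit-201 and absent from Kit-204, and adds a few residues just outside the membrane. In Kitl it is the whole of exon 6 (GRCm38 chromosome 10, 100080857 to 100080940, 84 bases), which holds the main site of proteolytic release. It is present in transcript Kitl-202 and absent from Kitl-201, the form that stays longer on the membrane. Both are given from GENCODE M21 transcripts, 5′ to 3′, in lower case with nothing marked.
Kit exon 9 segment: gtaacaacaaag
Kitl exon 6: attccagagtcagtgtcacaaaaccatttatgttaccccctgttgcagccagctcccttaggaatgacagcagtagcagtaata
The receptor's coding sequence is 2937 bases long with its segment and 2925 without it, and that of the ligand is 819 and 735 bases long.

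Kit, the receptor (ENSMUSG00000005672, GRCm38 chromosome 5, 75574916 to 75656722, plus strand), had more RNA in aged uteri than at either younger age. Levels are in CPM, read counts scaled to the library's total over the listed genes. At 5 weeks the lowest Kit value was 1.40 CPM, the median 5.49 and the highest 9.69. At 8 weeks the lowest was 4.96 CPM, the median 7.06 and the highest 18.3. In aged uteri the lowest was 13.1 CPM, the median 23.7 and the highest 47.7. All 6 aged libraries lay above every 5-week library, a separation that 1.65% of all genes showed in the same direction. Of the aged libraries, 4 of 6 lay above every 8-week library, and all 6 would have done so but for 8w replicate 7, whose 18.3 CPM stood above the next highest 8-week value of 11.3 CPM. A complete separation of aged above 8-week libraries was seen for 0.946% of genes.

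The mean Kit level was 5.59 ± 3.02 CPM (SD, n = 7) at 5 weeks, 8.87 ± 4.71 CPM (SD, n = 7) at 8 weeks and 27.2 ± 13.3 CPM (SD, n = 6) in aged uteri. On the log2(CPM + 1) scale, with the set as a term in a limma fit over all genes, aged uteri exceeded 8-week uteri by 1.48 ± 0.35 (SE, 95% interval 0.74 to 2.22) and 5-week uteri by 2.10 ± 0.35 (SE, 95% interval 1.36 to 2.84). The median difference of all genes was 0.05 and 0.09 in these comparisons. At an adjusted p under 0.05, 17.2% of all genes were called between aged and 8-week uteri and 22.1% between aged and 5-week uteri. With columns attached by file instead, the Kit differences were 1.17 and 1.91, and without 5w replicate 3, whose table belongs to an aged sample, they were 1.48 and 2.18. From 5 to 8 weeks the Kit difference was 0.62 ± 0.34 (SE, 95% interval -0.09 to 1.32), so these neighbours in the order of levels did not differ beyond their spread. Between those ages 0% of genes were called by limma, and 139 genes had an unadjusted p under 0.05. Kit was counted from 36 to 837 reads per library, so the lowest values rest on few reads.

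The Kit difference with age was of like size in the earlier and the later set. In the earlier set Kit was at 9.69 and 3.80 CPM at 5 weeks, at 11.3 and 9.09 CPM at 8 weeks, and at 17.0 and 47.7 CPM in aged uteri. In the later set it ran from 1.40 to 8.83 CPM at 5 weeks and from 4.96 to 18.3 CPM at 8 weeks. The 4 aged libraries of that set held 13.1, 27.2, 20.2 and 37.9 CPM, and the lowest of them lay below 8w replicate 7. The log2 difference between aged and 8-week uteri was 1.41 ± 0.67 (SE) in the earlier and 1.51 ± 0.45 (SE) in the later set, and that between aged and 5-week uteri 2.05 ± 0.67 (SE) and 2.12 ± 0.45 (SE). The difference of these differences, later minus earlier, was 0.10 ± 0.81 (SE, limma adjusted p = 0.968) against 8 weeks and 0.08 ± 0.81 (SE, limma adjusted p = 0.994) against 5 weeks. Its 95% interval, -1.59 to 1.80 and -1.62 to 1.77, leaves room for a sizeable difference between sets. The sign of the difference itself turned with a pseudocount of 5 and when single libraries were left out.

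**Figure D1:**
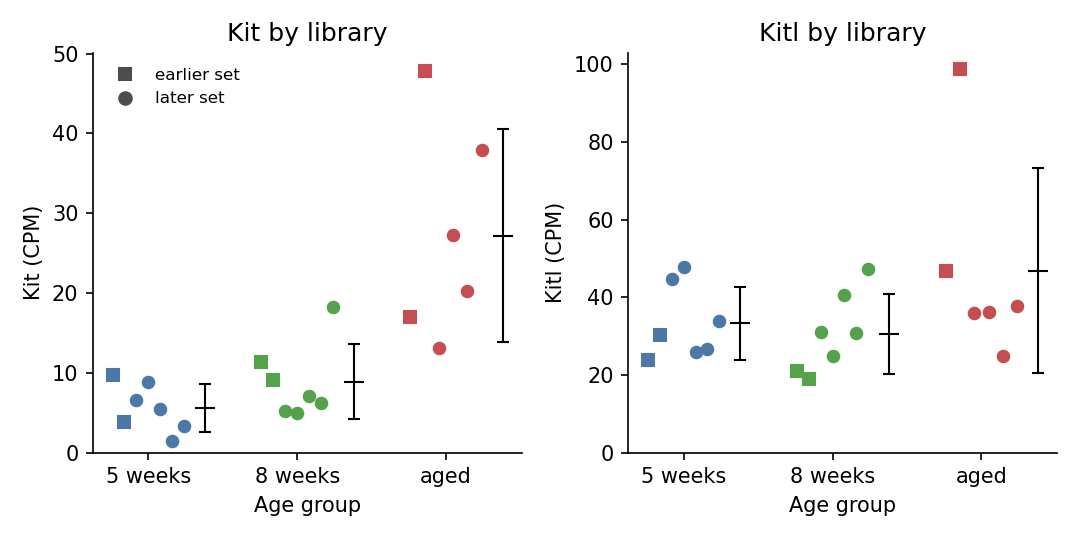
Kit (left) and Kitl (right) in CPM on linear axes, 1 point per library, by age group. Squares are the earlier set, circles the later set, and the bar beside each group is the mean ± SD. All 6 aged libraries exceed every 5-week library for Kit, whereas for Kitl 1 aged library, at 98.9 CPM, lies above all younger ones.

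Kitl, the ligand (ENSMUSG00000019966, GRCm38 chromosome 10, 100015630 to 100100416, plus strand), overlapped among the 3 ages. At 5 weeks the lowest Kitl value was 23.9 CPM, the median 30.3 and the highest 47.6. At 8 weeks the lowest was 19.0 CPM, the median 30.8 and the highest 47.2. In aged uteri the lowest was 25.0 CPM, the median 37.1 and the highest 98.9. Only 1 of the 6 aged libraries, aged replicate 2, lay above every younger library, and the next highest aged library, at 46.9 CPM, lay inside the range of both younger groups. Kitl was counted from 236 to 1230 reads per library.

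The mean Kitl level was 33.3 ± 9.44 CPM (SD, n = 7) at 5 weeks, 30.7 ± 10.3 CPM (SD, n = 7) at 8 weeks and 46.8 ± 26.4 CPM (SD, n = 6) in aged uteri. The log2 difference was 0.52 ± 0.27 (SE, 95% interval -0.05 to 1.09) against 8 weeks, 0.39 ± 0.27 (SE, 95% interval -0.18 to 0.96) against 5 weeks, and -0.14 ± 0.26 (SE, 95% interval -0.68 to 0.41) from 5 to 8 weeks. No neighbours in the order of the 3 groups differed beyond this spread. Without aged replicate 2 the aged differences were 0.25 and 0.12. With columns attached by file they were 0.53 and 0.47.

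For the ligand the age differences were positive in the earlier set and near 0 in the later set, a contrast that did not pass the threshold over all genes. In the earlier set Kitl was at 23.9 and 30.3 CPM at 5 weeks, at 21.1 and 19.0 CPM at 8 weeks, and at 46.9 and 98.9 CPM in aged uteri. In the later set it ran from 25.9 to 47.6 CPM at 5 weeks, from 24.8 to 47.2 CPM at 8 weeks and from 25.0 to 37.9 CPM in aged uteri, which lay within the span of the younger groups. The log2 difference between aged and 8-week uteri was 1.72 ± 0.37 (SE) in the earlier and -0.03 ± 0.25 (SE) in the later set, and that between aged and 5-week uteri 1.31 ± 0.37 (SE) and -0.05 ± 0.25 (SE). The difference of these differences, later minus earlier, was -1.75 ± 0.45 (SE, 95% interval -2.69 to -0.81, limma unadjusted p = 0.00105, adjusted p = 0.112) against 8 weeks. Against 5 weeks it was -1.36 ± 0.45 (SE, 95% interval -2.30 to -0.42, limma unadjusted p = 0.00702, adjusted p = 0.333). As the pair was chosen with results known, these p-values are no independent test. Neither adjusted value passed, and among all genes 0.0235% of genes were called against 8 weeks (1855 had an unadjusted p under 0.05) and 0% against 5 weeks (1079 had an unadjusted p under 0.05). Markers of several tissues also differed between the sets in the same comparison. Between aged and 8-week uteri, fitted in each set alone, the median log2 difference was 1.71 in the earlier and -0.39 in the later set over 6 smooth muscle genes, and 1.29 and -0.10 over 6 endothelial genes. It was 0.61 and -0.55 over 7 stromal genes and -0.86 and 0.16 over 7 epithelial genes. Against 5 weeks these medians were 0.88 and 0.37 for smooth muscle, 1.12 and 0.08 for endothelium, 0.57 and -0.43 for stroma, and -1.10 and -0.29 for epithelium. Their part in the Kitl difference was not tested. The earlier set has 2 libraries per age, and without aged replicate 2 the difference against 8 weeks was -1.22 and that against 5 weeks -0.83. With columns attached by file these were -0.70 and -0.18. That mapping puts the values of aged replicate 2 in the later set and those of aged replicate 5 in the earlier set. Their total reads, 12440146 and 19249393, lie in the ranges of the sets that the headers name.

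**Figure D2:**
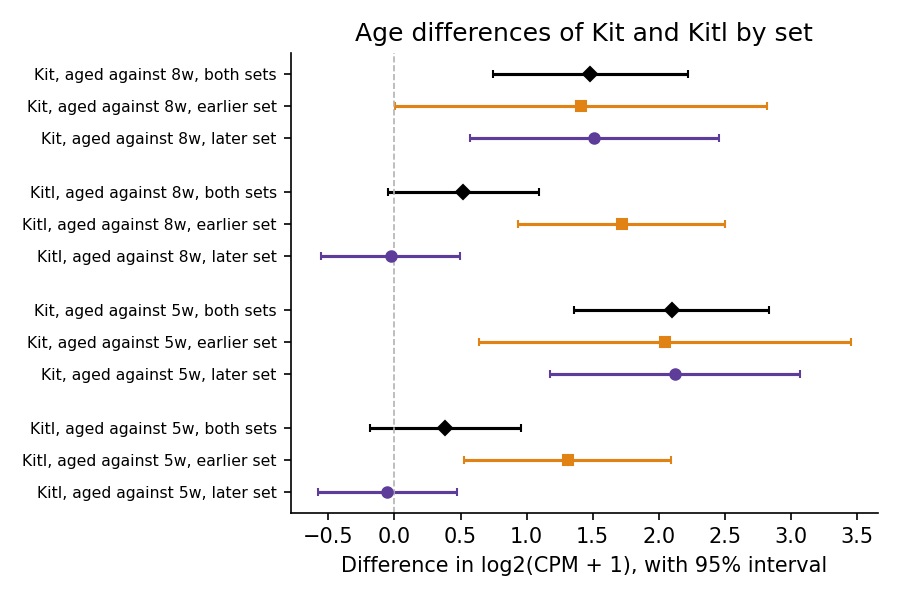
Differences in log2(CPM + 1) of Kit and Kitl between aged and younger uteri, with 95% intervals, over both sets (diamonds) and within the earlier (squares) and later set (circles). Kit lies between 1.41 and 2.12 in all 6 estimates, whereas Kitl lies at 1.72 and 1.31 in the earlier set and at -0.03 and -0.05 in the later set.

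Apart from age, the later set differed from the earlier by -0.37 ± 0.31 (SE, limma adjusted p = 0.316) in Kit and by 0.05 ± 0.24 (SE, limma adjusted p = 0.864) in Kitl on the log2 scale. Neither gene passed the test, in a contrast for which 58.7% of all genes were called. The 95% interval was -1.02 to 0.28 for Kit and -0.45 to 0.55 for Kitl. For Kitl this value averages shifts of opposite sign. From the earlier to the later set its mean went from 27.1 to 35.8 CPM at 5 weeks and from 20.03 to 34.9 CPM at 8 weeks, but from 72.9 to 33.8 CPM in aged uteri. A value near 0 therefore does not show that Kitl was alike in the sets.

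Ligand RNA exceeded receptor RNA in every library once both were divided by exon length, taken over all transcripts of the gene. The ratio was smallest in the aged group over both sets and in the later set, but in the earlier set it was larger in aged than in 8-week uteri. Kit has 8911 and Kitl 5911 bases of exon in the annotation, and no other annotated gene overlaps these exons. The coding transcripts of Kit have 5241 and 5214 bases and Kitl-202 has 5648, so the ratio depends on the length used. Without division by length the ratio in aged replicate 7 was 0.999. As Kitl-202 is longer than these Kit transcripts, division by transcript length would put Kit above Kitl in that library. The ratio of Kitl to Kit in CPM per kb of exon ran from 3.71 to 28.7 at 5 weeks (median 10.1), from 2.81 to 9.001 at 8 weeks (median 7.49) and from 1.51 to 4.16 in aged uteri (median 2.50). The aged range overlapped that of both younger groups. In the earlier set the ratio was 3.71 and 12.0 at 5 weeks, 2.81 and 3.15 at 8 weeks and 4.16 and 3.12 in aged uteri, with mean log2 ratios of 2.74, 1.57 and 1.85. In the later set the 5-week libraries lay between 7.12 and 28.7 and the aged libraries between 1.51 and 4.16, with no overlap, and the 8-week libraries lay between 3.90 and 9.001. This ratio restates the levels of the pair and is no separate measure.

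The relation of Kitl to Kit across libraries did not pass the test in either set. Within the later set Pearson's r of the log2 values was 0.350 (n = 14, permutation p = 0.220, adjusted p = 0.220 over the 2 sets) and Spearman's rho 0.459 (permutation p = 0.1003, adjusted p = 0.201). Within the earlier set r was 0.786 (n = 6, exact permutation p = 0.117, adjusted p = 0.220) and rho 0.6 (exact permutation p = 0.242, adjusted p = 0.242). Without the 2 libraries farthest from the median of Kit, r was 0.335 in the later and 0.939 in the earlier set. Age varies among these libraries, and the aged libraries with the highest Kit differ in Kitl. Aged replicate 2 had 47.7 CPM of Kit and 98.9 CPM of Kitl, and aged replicate 7 had 37.9 CPM of each.

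**Figure D3:**
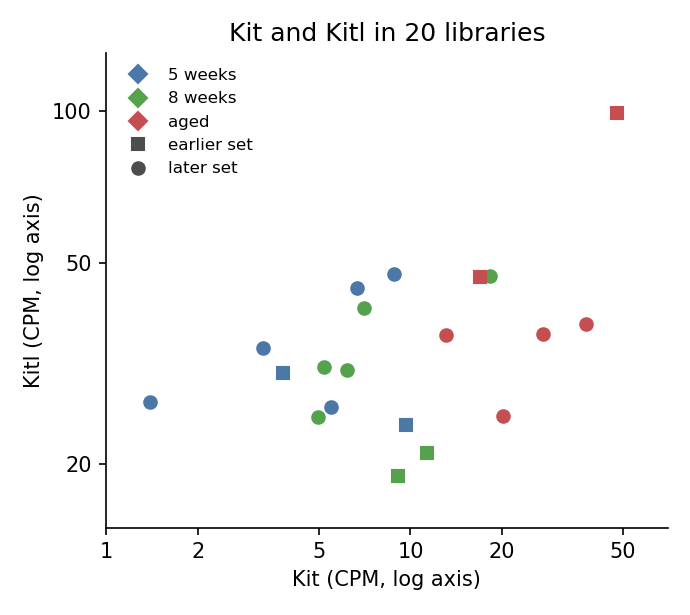
Kitl against Kit in CPM in the 20 libraries, on log axes, coloured by age group, with squares for the earlier and circles for the later set. The aged libraries of the later set lie to the right of most younger ones at the same height, between 25.0 and 37.9 CPM of Kitl, and aged replicate 2 lies apart at the upper right.

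The genes whose levels followed Kit most closely were Pisd-ps2, Fam120b, Sorbs2, Slc6a17 and Eml5, with Pearson's r of 0.912, 0.912, 0.907, 0.907 and 0.904 over the 20 libraries. These r were computed on log2(CPM + 1) after subtracting the mean of each set, and are a description over libraries that share age, depth and preparation. Slc6a17, a neutral amino acid transporter, averaged 2.71 CPM at 5 weeks, 4.85 at 8 weeks and 22.0 in aged uteri. Its lowest value was 0.543 CPM, so its low values rest on few reads. Sorbs2, a scaffold protein of the actin cytoskeleton, averaged 30.6, 33.0 and 84.3 CPM in the same order. Pisd-ps2 is a pseudogene, and the sources used here do not say how reads were divided between it and its parent gene. The genes that ran most opposite to Kit were Atp5pb, a subunit of ATP synthase, with r of -0.908, and Sdhd and Sdhb, subunits of succinate dehydrogenase, with r of -0.903 and -0.900.

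Kitl was followed most closely by other genes. They were Dync2h1, the heavy chain of the dynein motor of cilia, with r of 0.939, Cfap300, a factor for assembly of motile cilia, with 0.937, Ro60, an RNA-binding protein, with 0.921, Dnal1, a light chain of axonemal dynein, with 0.910, and Gulp1, an adaptor for engulfment of dying cells, with 0.906. Within the later set alone these r ran from 0.774 to 0.884, and within the earlier set from 0.930 to 0.984. Most opposite were Taldo1, 1110008P14Rik and Dohh, with r of -0.850, -0.837 and -0.796. By the same measure Kit and Kitl had r of 0.508 with each other. Kitl stood at rank 3316 among the genes like Kit, and Kit at rank 2154 among those like Kitl.

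Kit belongs to the class III receptor tyrosine kinases, with Pdgfra and Pdgfrb, the receptors for platelet-derived growth factors, Csf1r, the receptor that macrophages depend on, and Flt3, a receptor of blood progenitors and dendritic cells. Per kb of exon, 3 of the 4 others had a higher mean than Kit at each age, and Flt3 had a lower one. The mean level in aged uteri was 3.05 ± 1.498 CPM per kb (SD, n = 6) for Kit, 22.8 ± 8.15 for Csf1r, 17.2 ± 10.2 for Pdgfra, 13.9 ± 7.51 for Pdgfrb and 0.536 ± 0.153 for Flt3. At 5 weeks Kit averaged 0.627 ± 0.338 CPM per kb (SD, n = 7) and at 8 weeks 0.995 ± 0.529 (SD, n = 7). In aged uteri the lowest Kit value per kb, 1.46, lay above the highest Flt3 value, 0.671. The highest Kit value, 5.36, lay below the lowest Pdgfra value, 6.59. Kit was divided by 8911 bases, whereas its coding transcripts have 5241 and 5214, so such a separation between genes could differ with another length. At 5 and 8 weeks the ranges of Kit and Flt3 overlapped, from 0.157 to 1.09 against 0.0879 to 0.365 and from 0.556 to 2.05 against 0.261 to 0.696. Pdgfra, Csf1r and Pdgfrb overlapped each other at every age.

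**Figure D4:**
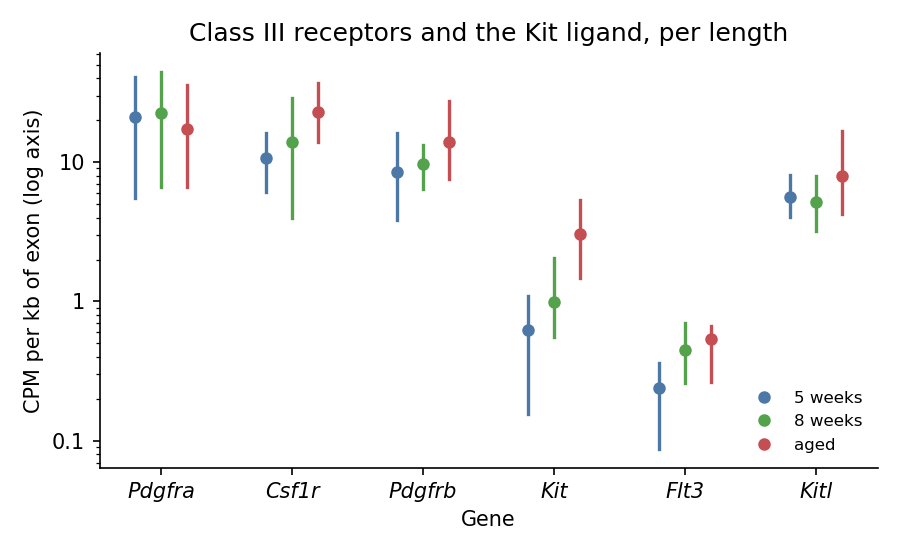
Class III receptors and Kitl in CPM per kb of exon on a log axis. Points are group means and lines run from the lowest to the highest library of each age group. Kit lies between Flt3 and the other receptors, at means of 0.627, 0.995 and 3.05 CPM per kb from 5 weeks to aged. Exon length is taken over all transcripts of a gene, and levels per kb depend on the length used.

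Of the 4 other receptors, Csf1r rose between 8-week and aged uteri, by 0.95 ± 0.32 (SE, limma adjusted p = 0.0453), from 79.9 ± 50.4 CPM (SD, n = 7) to 132 ± 47.1 CPM (SD, n = 6). That call was lost in 13 of the 20 fits that left out 1 library, controls included, with adjusted p from 0.0137 to 0.121, and 15.1% of the exon length of Csf1r lies opposite a gene of the other strand. Among all genes, 8.64% were called higher and 8.53% lower in aged than in 8-week uteri. Against 5 weeks Csf1r rose by 1.15 ± 0.32 (SE, limma adjusted p = 0.0145) and Flt3 by 0.82 ± 0.20 (SE, limma adjusted p = 0.00784), where 12.7% of all genes were called higher and 9.41% lower. Flt3 ran from 0.543 to 2.25 CPM at 5 weeks, so its values there rest on few reads. Pdgfra and Pdgfrb did not pass in either comparison, at -0.31 ± 0.31 and 0.42 ± 0.33 (SE) against 8 weeks and -0.22 ± 0.31 and 0.72 ± 0.33 (SE) against 5 weeks. The median of the 4 was 0.31 and 0.77, beside 0.05 and 0.09 for all genes. Of 7 ligands of these receptors, 5 were in the tables, Pdgfa, Pdgfb, Pdgfc, Pdgfd and Csf1, and limma called none. Their differences ran from -0.32 to 0.33 against 8 weeks and from -0.22 to 0.42 against 5 weeks.

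The 3 proteases known to release stem cell factor from the membrane did not move together. Adam17, a broad sheddase, fell by 0.45 ± 0.13 (SE, limma adjusted p = 0.0276) against 8 weeks and by 0.47 ± 0.13 (SE, limma adjusted p = 0.0182) against 5 weeks, from 94.1 and 93.7 CPM to 67.9 CPM. The call against 8 weeks was lost without 8w replicate 1 or 2 or aged replicate 1, 2 or 4. Adam33, a protease of mesenchymal cells, rose by 1.28 ± 0.34 (SE, limma adjusted p = 0.0122) against 5 weeks, from 23.4 to 50.9 CPM, and was 0.87 ± 0.34 (SE, limma adjusted p = 0.0861) higher than at 8 weeks. Mmp9, a gelatinase carried by neutrophils and macrophages, was 0.96 ± 0.48 (SE, limma adjusted p = 0.171) higher than at 8 weeks and 1.09 ± 0.48 (SE, limma adjusted p = 0.106) higher than at 5 weeks.

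All 43 listed adaptors and effectors downstream of Kit were in the tables, and most did not pass the test. Of all genes, 17.2% were called against 8 weeks (8.64% higher, 8.53% lower) and 22.1% against 5 weeks (12.7% higher, 9.41% lower). Against 8 weeks 2 of 43 rose, among them Plcg2, a phospholipase C of blood cells, by 0.87 ± 0.20 (SE, limma adjusted p = 0.00582). Another 2 of 43 fell, Nras, a Ras protein, by 0.52 ± 0.12 (SE, limma adjusted p = 0.00547) and Crk, an adaptor, by 0.52 ± 0.14 (SE, limma adjusted p = 0.0146). Against 5 weeks 4 rose and 2 fell. Plcg2 rose by 0.97 ± 0.20 (SE), and smaller rises were called for Plcg1, the widely expressed phospholipase C, at 0.67, Gab1, a scaffold, at 0.60, and Vav1, an exchange factor of blood cells, at 0.56. Nras fell by 0.57 and Crk by 0.63. The list's median difference was 0.07 and 0.10, near the 0.05 and 0.09 of all genes. Plcg2, Nras and Crk passed in each of the 20 fits that left out 1 library, in both comparisons. The calls of Gab1 and Plcg1 against 5 weeks were lost in 13 and 14 of the 20 fits. That of Vav1 was lost without 5w replicate 1 or 6 or aged replicate 1, 4 or 6. In the later set alone no member passed against 8 weeks by limma, and 1 rose and 1 fell against 5 weeks. Calls over all genes numbered 183 against 8 weeks and 523 against 5 weeks there, so few among 43 say little. With columns attached by file none of the 43 passed by limma in either comparison. Under that mapping limma called 565 of all genes against 8 weeks and 2014 against 5 weeks.

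Among 18 negative regulators of the receptor, all in the tables, 1 rose and 1 fell against 8 weeks. Of all genes, 8.64% were called higher and 8.53% lower in that comparison. Socs1, which binds Kit and damps its signal, fell by 0.89 ± 0.22 (SE, limma adjusted p = 0.0105), from 12.1 to 5.53 CPM. Dok1, a docking protein that restrains Ras, rose by 0.52 ± 0.17 (SE, limma adjusted p = 0.0405), a call lost in 11 of the 20 fits without 1 library, with adjusted p up to 0.0983. Against 5 weeks 3 rose and 1 fell, where 12.7% of all genes were called higher and 9.41% lower. Inpp5d, a lipid phosphatase of blood cells, rose by 0.87 ± 0.16 (SE, limma adjusted p = 0.000988), and all 6 aged libraries, at 33.9 to 67.7 CPM, lay above every 5-week library, at 12.3 to 30.6 CPM. That separation was seen for 1.65% of all genes. For Inpp5d 2 aged libraries lay above every 8-week library. Ptpn6, a tyrosine phosphatase of blood cells, rose by 0.58, Dok1 rose by 0.55, a call lost without 5w replicate 2, 6 or 7 or aged replicate 1 or 7, and Socs1 fell by 0.83. The list's median was 0.01 and 0.00 in the 2 comparisons.

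**Figure D5:**
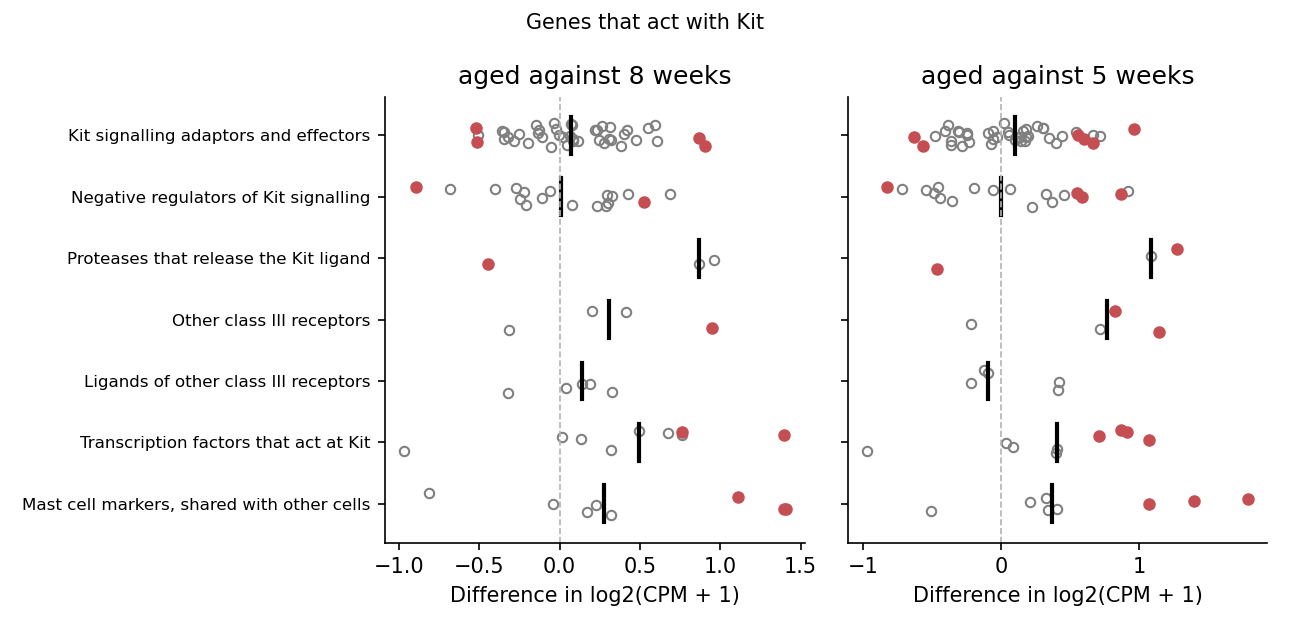
Differences in log2(CPM + 1) of genes that act with Kit or mark cells that carry it, aged against 8 weeks (left) and against 5 weeks (right). Filled red points passed the test over all genes, open points did not, and black bars are list medians. The signalling list is centred near 0, at medians of 0.07 and 0.10.

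Of 13 transcription factors known to act at the Kit gene in blood or pigment cells, 9 were in the tables. Of all genes, 8.64% were called higher against 8 weeks and 12.7% against 5 weeks. Against 8 weeks 2 rose, Mitf, the factor of mast cells and melanocytes, by 1.40 ± 0.33 (SE, limma adjusted p = 0.00729) and Ldb1, the bridging partner of Gata and Lmo proteins, by 0.76 ± 0.18 (SE, limma adjusted p = 0.00708). Mitf ran from 8.37 to 40.8 CPM at 8 weeks and from 25.1 to 68.2 CPM in aged uteri, where 4 of 6 libraries lay above every 8-week library. Against 5 weeks Ldb1 rose by 0.87, Mitf by 1.07, Lyl1 by 0.92 and Runx1 by 0.71. Of these, Ldb1 passed in each of the 20 fits that left out 1 library, and Runx1 lost the call in 9 of them. Mitf did not pass without 5w replicate 2 or aged replicate 1, 2 or 4, nor Lyl1 without 5w replicate 6 or 7 or aged replicate 1, 2 or 4. Against 5 weeks 1 of the 9 rose without aged replicate 2, and 1 with no set term. With quantile normalization 1 rose and 1 fell. Within the later set no factor passed by limma in either comparison, although Mitf was 1.00 higher than at 8 weeks, against 2.24 within the earlier set. The later set gave calls for 183 of all genes against 8 weeks and 523 against 5 weeks, so none among 9 says little. Myb, a factor of blood progenitors, was lower, at -0.97 ± 0.35 (SE, limma adjusted p = 0.0627 and 0.0521) in both comparisons. The list's median was 0.49 and 0.41.

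Markers of the cell types that are known to carry Kit were looked at beside these results. None of the 11 defining mast cell genes (Cpa3, Cma1, Mcpt1, Mcpt2, Mcpt4, Tpsb2, Tpsab1, Ms4a2, Fcer1a, Mrgprb1 and Mrgprb2) is in the tables, which hold only genes with at least 10 reads in every library, so each fell short of that in at least 1 library or is not analysed here for another reason. Of 8 genes that mast cells share with other cells 3 rose in each comparison, where 8.64% and 12.7% of all genes were called higher. They were Hpgds, a prostaglandin D synthase, at 1.41 ± 0.40 and 1.79 ± 0.40 (SE), Il1rl1, the interleukin 33 receptor, at 1.11 ± 0.31 and 1.40 ± 0.31 (SE), and Mitf. Against 8 weeks the calls of Hpgds and Il1rl1 were lost without 8w replicate 2 or aged replicate 1, and that of Il1rl1 also without aged replicate 2. In the later set alone none of the 8 passed by limma in either comparison. Limma called 183 of all genes against 8 weeks and 523 against 5 weeks in that set, so none among 8 says little. The list's median was 0.28 and 0.37, and its lowest member, Srgn, a granule proteoglycan, was at -0.81 and -0.51 without passing the test, with a mean of 138 CPM in aged uteri, 264 at 8 weeks and 222 at 5 weeks. Il1rl1 lay between 4.41 and 14.9 CPM in aged uteri and between 0.930 and 4.14 CPM at 5 weeks, with no overlap. Such a separation was seen for 1.65% of all genes. Its highest 8-week value was 6.06 CPM, and 2 aged libraries lay above it. Hdc, the enzyme that makes histamine, was at 0.17 ± 0.71 and 0.32 ± 0.71 (SE), and ran from 8.08 to 499 CPM over the younger and from 16.5 to 276 CPM over the aged libraries. The summed level of the 8 genes was 510 to 807 CPM in aged uteri. It was 318 to 1020 CPM at 8 weeks and 329 to 1098 CPM at 5 weeks, so it overlapped throughout. Srgn and Hdc, neither of them called, averaged 138 and 135 CPM in aged uteri. Hpgds, Mitf and Il1rl1 averaged 45.3, 52.2 and 7.64 CPM there, so the sum says little about these 3. The part of these genes in the Kit difference was not tested.

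Other carriers of Kit had few markers in the tables. Of all genes, 8.64% were called higher and 8.53% lower against 8 weeks, and 12.7% and 9.41% against 5 weeks. At these shares, calls or their absence in lists this short say little. Of 4 markers of interstitial cells of Cajal, Ano1 and Prkcq were listed, and limma called neither, with a summed level of 33.0 to 125 CPM in aged uteri, 29.2 to 86.7 at 8 weeks and 20.2 to 83.5 at 5 weeks. Of 7 melanocyte markers Pmel alone was listed, at 1.45 to 4.93 CPM in aged and 1.28 to 9.08 CPM in the younger uteri. Of 10 ovary markers Foxl2 and Inha were listed, and limma called neither. Of 7 blood progenitor markers 5 were listed. Hlf, also an output factor of the circadian clock, rose by 1.95 ± 0.47 and 1.84 ± 0.47 (SE), and Cd34, also present on stromal and vessel cells, fell by 1.40 ± 0.45 and 1.42 ± 0.45 (SE) against 8 and 5 weeks. The Cd34 calls were each lost in 8 of the 20 fits without 1 library. In the later set alone limma called none of the 5 in either comparison, where it called 183 and 523 of all genes.

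The markers of the labelled tissue, whole uterus, were all in the tables. Of all genes, 8.64% were called higher and 8.53% lower against 8 weeks, and 12.7% and 9.41% against 5 weeks. The 7 epithelial, 7 stromal and 6 smooth muscle genes summed to 1332 to 7294, 3926 to 9238 and 1314 to 25430 CPM over all libraries, and these ranges overlapped among the ages. Over both sets the epithelial median difference was -0.33 against 8 weeks and -0.49 against 5 weeks. In the earlier set alone 3 and 4 of the 7 epithelial genes were called lower and none higher by limma. Of all 12791 genes, 1691 and 1093 were called lower there against 8 and 5 weeks. In the later set alone 1 of the 7 was called higher and none lower in each comparison. Of all genes, 51 and 240 were called higher in that set, so few calls among 7 say little. Against the epithelial median, Foxa2, a factor of the uterine glands, rose by 1.54 ± 0.40 and 1.72 ± 0.40 (SE) against 8 and 5 weeks. With columns attached by file limma called no epithelial gene against 8 weeks and 1 higher against 5 weeks. Col1a1, a fibrillar collagen, fell by 1.15 ± 0.35 (SE) against 5 weeks, a call lost without 5w replicate 1 or aged replicate 2. Of 6 endothelial genes Cldn5, a tight junction protein, rose by 1.62 ± 0.32 and 1.80 ± 0.32 (SE). In the earlier set alone limma called 3 and 2 of the 6 higher, and in the later set alone none in either comparison. The medians were 0.38 and 0.50 for endothelium, -0.27 and -0.07 for stroma, and 0.23 and 0.56 for smooth muscle, in which limma called no gene in either comparison. These medians over both sets cover the opposite or unequal values in the single sets given beside Kitl. The part of any cell type in the Kit and Kitl values was not tested.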

How the data were processed

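Per the submitters' processing notes, fastp, STAR, featureCounts and edgeR were used with mouse build GRCm38. Versions, and whether counting used strand, are not given in the sources used here, and per the labels' protocols the NEBNext Ultra kit was used. The authors deposited 1 table of CPM per sample. All 12791 genes had at least 10 reads in every library, and values were whole multiples of 1 read within 1e-04 of a read. Total reads were 12204573 to 14448283 in the earlier and 19100690 to 30689439 in the later set.

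Of 21 files, 1 held gene symbols in place of numbers. In 15 of the other 20 the column header names another sample than the file's own, in 2 cases (5w replicate 3 and 8w replicate 3) of another age group. Columns were taken by header, which left 20 libraries and no column for aged replicate 3.

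Values were analysed as log2(CPM + 1), which understates the change of low genes, with limma 3.58.1 (R 4.3.3), age group and set as terms, empirical Bayes with a mean-variance trend, and Benjamini-Hochberg adjustment over all genes at 0.05. The fit was tested on simulated data. Within-set differences came from a fit with the product of age and set. Gene spans and exon lengths are from GENCODE M21.

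Kit, Kitl and the 16 gene lists were chosen with earlier results of these data known. Named are, in each list, called genes (up to 4 per direction and comparison, by adjusted p), whole lists of up to 5 measured genes, the other class III receptors, and the 5 most and 3 least like genes of each member. Of these, 1 gene is not reported here by name. Hdc, Srgn and Myb were named after their values were seen. Alternatives were the pseudocount, a filter at 5 CPM, normalization, variance model, set, replicate number, column mapping and each library left out. Median centring and list counts without single libraries were chosen after seeing the data.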

Additional observations from a re-analysis of the deposited data

Results flagged for a closer look

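Among 12 combinations of gene, age group and set checked for a library far from the others, 3 had one. Chance alone would mark about 1 in 20 if values were independent and normally spread. The check used CPM, not the log scale. Groups over both sets share libraries with those of the later set, so this rate is only a guide. For Kit at 8 weeks in the later set, 8w replicate 7 had 18.3 CPM and the next highest of the 5 libraries 7.06 CPM, a gap of 0.842 of the group's range. For Kitl in the aged group over both sets, aged replicate 2 had 98.9 CPM and the next highest of 6 libraries 46.9 CPM, a gap of 0.704 of the range. For Kitl in aged uteri, later set only, aged replicate 6 had 25.0 CPM and the next lowest of 4 libraries 36.0 CPM, a gap of 0.859 of the range.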

How the results depend on the processing

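The log2 difference of Kit between aged and 8-week uteri stayed between 1.16 and 1.68 in 31 alternatives, and that between aged and 5-week uteri between 1.54 and 2.32. limma's adjusted p for the first, 0.00779 over all libraries, rose past 0.05 in the later set alone (1.51, adjusted p = 0.109), in the earlier set alone (1.41, adjusted p = 0.0989) and with columns attached by file (1.17, adjusted p = 0.105). These p show how the fit moves and are no test of a pair chosen with results known. For Kitl the later set alone gave -0.028 and -0.054 and the earlier set alone 1.72 (adjusted p = 0.0191) and 1.31 (adjusted p = 0.0460) against 8 and 5 weeks. With a pseudocount of 5 the difference between sets in the age difference of Kit was -0.0083 and -0.056. Leaving out 1 library moved it from -0.62 to 0.82 and from -0.64 to 0.80, and the set difference of Kitl from -0.079 to 0.32.

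Genes called between aged and 8-week uteri numbered 2196, against 969 with no set term, 183 in the later set alone, 3613 in the earlier set alone, 565 with columns attached by file and 1309 to 2617 without 1 library. The lowest counts came without 8w replicate 1 (1454), 8w replicate 2 (1358) and aged replicate 1 (1309). Against 5 weeks 2825 were called, against 1380 with no set term, 523 in the later set alone and 1982 to 3294 without 1 library. The cause of these moves was not tested.

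With a replicate block in place of the set term, Kit differed by 1.48 and 2.10, and 1637 and 2413 genes were called. Across 19 pairs of libraries with the same number, deviations from the group mean correlated from -0.21 to 0.91, and 3 of 20 libraries correlated best with their own number, so the numbers were not taken to pair the libraries. The planned count tests and TMM scaling were not run. The tables hold CPM of genes above a minimum, and the read numbers given here were worked back from CPM. The counting error of Kit is largest in 5w replicate 6, with 36 Kit reads at 1.396 CPM in a library of 25793578 reads, which is among the deeper ones.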
